A study of Anguilla anguilla with 11 samples.

Results

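The potassium channels of the rete mirabile of the European eel (Anguilla anguilla) were taken as the rows of the transcriptome table whose description contains both the words potassium and channel, and 241 of 45974 predicted genes, here called transcripts, met this rule. They carried 77 names, and 4 transcripts had none. By words of the description they fell into 40 inward rectifiers, 25 two-pore channels, 27 calcium- or sodium-activated channels, 122 voltage-gated pore subunits, 14 accessory subunits and regulators and 13 hyperpolarization-activated cation channels. The rete mirabile is the countercurrent capillary system that supplies the swimbladder. Its tissue was taken from 6 silver eels, which are preparing for the spawning migration, and 5 yellow eels, the preceding freshwater stage, all of them female eels caught in Lake Constance, with no experimental treatment of either stage. Blood was flushed from the rete with heparinized saline before dissection, and polyA-selected RNA was sequenced as 1 library per eel, so p-values measure the spread between eels. The library titles form 2 sets that each hold both stages, FG1907 with 3 silver and 2 yellow eels and FG1835 with 3 silver and 3 yellow eels. The main test of the stage had no term for the set, so in it the spread between eels includes differences between the sets.

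Potassium channels let potassium leave or enter cells along its gradient and thereby set the membrane potential. In blood vessels their opening hyperpolarizes the membrane, closes voltage-gated calcium channels of smooth muscle and lowers vessel tone. In endothelial cells the hyperpolarization favors calcium entry. Inward rectifiers and two-pore channels carry background currents, calcium-activated channels couple the potential to calcium, and voltage-gated channels open on depolarization. Accessory subunits change the gating or the surface expression of the pore subunits.

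The summed counts of all transcripts lay between 9360429 and 12438185 per library, and the values below are relative expression values, in which each count is scaled by the median-of-ratios size factor of its library. They are not divided by transcript length, so levels of different transcripts are not compared with each other. The markers of endothelial cells were present in all libraries, with a summed value over 23 marker transcripts of 37156 to 76350.0 in silver eels and 53323 to 69066 in yellow eels. Those of mural and smooth muscle cells summed to 49734 to 120960 over 41 transcripts in silver eels and 64000.1 to 117903 in yellow eels. The silver eel library FG1907_02 held the lowest endothelial sum. Its mural sum was the highest through 1 transcript, rgs5 g2442, and over the other 40 mural transcripts, a sum added after seeing the data, it had 72795, against 49683 to 117106 in the other 10 libraries. In such bulk tissue, fewer cells of a type and less RNA per cell cannot be told apart.

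Few of the potassium channel transcripts were sampled deeply. No read was found for 65 of the 241, which allows up to 3 counts per library, 176 had at least 1 read in some library, and 40 had a read in every library. Per library, between 80 and 112 of them had a read. A mean above 50 was reached by 11 transcripts, and these held 59.8 to 87.8% of the summed value of all 241. The filter on low counts left 35 of the 241 for the test, namely 3 inward rectifiers, 3 two-pore channels, 4 calcium- or sodium-activated channels, 19 voltage-gated pore subunits, 5 accessory subunits and 1 hyperpolarization-activated channel. They belonged to 30 names, and the other 47 names had no tested transcript.

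The summed relative expression value of the 241 transcripts was 4132 ± 1102 in silver eels (SD, n = 6) and 4047 ± 278 in yellow eels (SD, n = 5). In silver eels it lay between 3149 and 6251 with a median of 3875, and the yellow values of 3708 to 4353 fell inside this range. The highest sum belonged to the silver eel library FG1907_03.

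None of the 35 tested potassium channel transcripts changed between the stages at an adjusted p under 0.05 in edgeR's quasi-likelihood test, against 0 of 23981 transcripts tested (0%). DESeq2 called 21 transcripts in all and limma 0, and no potassium channel was among them. At an unadjusted p under 0.05, 1 potassium channel was higher in silver eels, where 1.03% of all transcripts tested were, and 2 were lower, where 1.11% were. The higher one, kcnh5, passed the filter on low counts only through silver eels, so this count is a description and no support. At an unadjusted p under 0.05 DESeq2 had 4 potassium channels among 684 transcripts and limma 2 among 469. With the library set as a term edgeR had 2 among 973, where the fit without it had 3 among 515. No transcript passed after adjustment in that fit either. The log2 difference was positive for 20 and negative for 15 transcripts, with a median of 0.023, against 0.0046 over all transcripts tested. No tested transcript had all silver libraries above all yellow ones or all below (0.113% and 0.125% of all transcripts tested). The plot of 9 of the 11 transcripts with a mean above 50 shows this overlap.

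**Figure D1:**
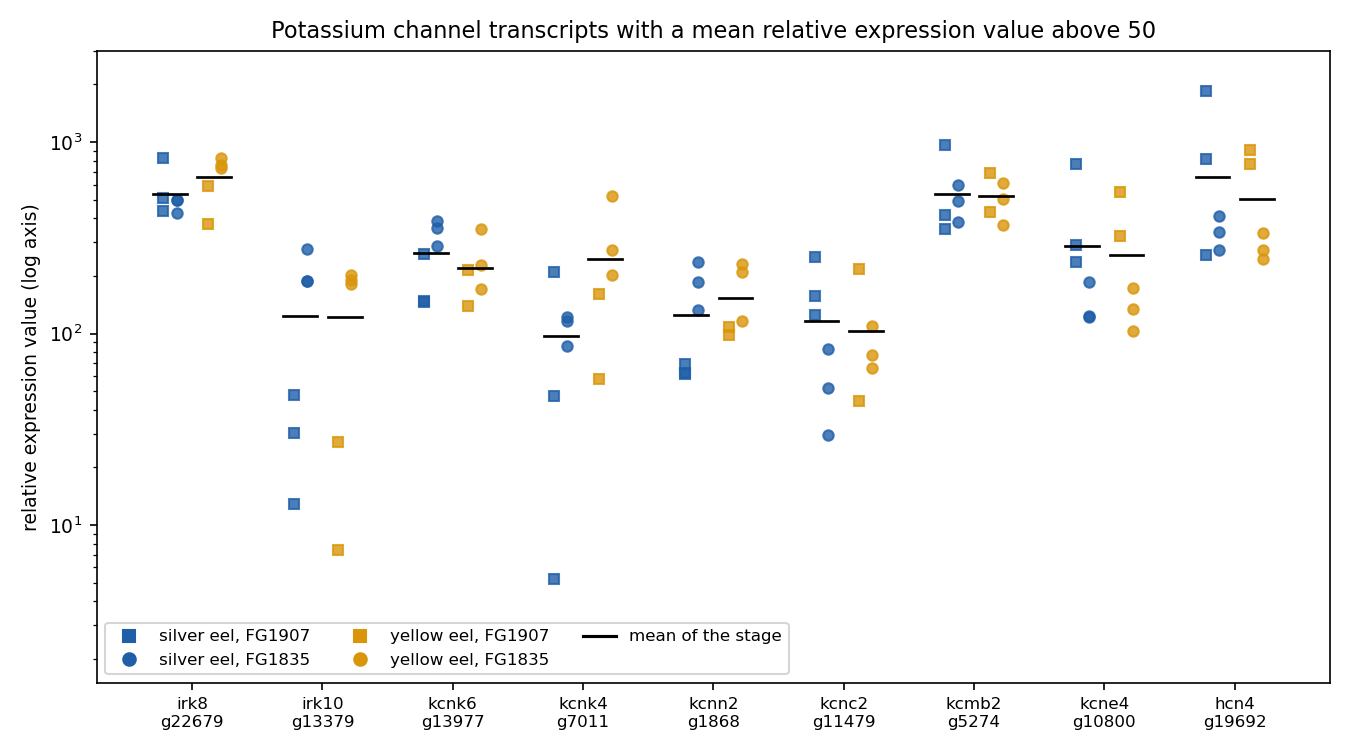
Relative expression values (log axis) of 9 of the 11 potassium channel transcripts with a mean above 50, for 6 silver eels (blue) and 5 yellow eels (orange), with squares for FG1907 and circles for FG1835 and black bars for the mean of each stage. Silver and yellow libraries overlap for each of these transcripts, and for irk10 the squares lie below the circles in both stages.

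The inward rectifier irk8 (g22679) is the pore subunit of the ATP-sensitive potassium channel of vascular smooth muscle and pericytes. Its relative expression value lay between 427 and 826 in silver eels with a median of 499, and was 826, 733, 762, 372 and 592 in yellow eels. The stages overlapped, though of the silver eels only FG1907_03 exceeded 513. The log2 difference was -0.31 ± 0.25 (SE, edgeR adjusted p = 1). The inward rectifier irk10 (g13379), known in mammals from glia and from potassium-transporting epithelia, had 12.9 to 275 in silver eels with a median of 118. In yellow eels it had 202, 181, 191, 27.1 and 7.42. Low and high libraries were found in both stages, and the log2 difference was 0.01 ± 0.83 (edgeR adjusted p = 1). The G-protein-coupled inward rectifier irk6 (g9494) had 10.4 to 56.6 in silver eels with a median of 33.3, and 78.9, 131, 66.4, 29.4 and 36.2 in yellow eels. The 3 highest values were those of yellow eels of FG1835, and the log2 difference of -1.06 ± 0.47 was under an unadjusted p of 0.05 but had an adjusted p of 1 in edgeR. The other 37 inward rectifier transcripts were not tested. None of them exceeded 37.6 in any library, and they include all transcripts of irk2, a strong rectifier that mammalian endothelial cells express, and of irk11, the other pore subunit of ATP-sensitive channels.

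The sulfonylurea receptors are the regulatory subunits of the ATP-sensitive channels. Of their 9 transcripts 4 were tested, none passed the test between the stages, and all 4 had a negative log2 difference with a median of -0.48. The highest of the list was g19365 of abcc9, the gene of the vascular form, which had 334 to 660.0 in silver eels with a median of 432. In yellow eels it had 886, 904, 796, 292 and 205. The 3 yellow eels of FG1835 lay above all silver eels and the 2 yellow eels of FG1907 below all of them.

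Among the two-pore channels, kcnk6 (g13977) had 146 to 388 in silver eels with a median of 273 and 229, 170.3, 351, 215 and 140.0 in yellow eels. It encodes a weakly rectifying background channel, and its log2 difference was 0.25 ± 0.32 (edgeR adjusted p = 1). The transcript kcnk4 (g7011) encodes a mechanosensitive and lipid-sensitive background channel. It had 5.22 to 209 in silver eels with a median of 101, and 203, 524, 274, 57.7 and 161 in yellow eels. The lowest value belonged to FG1907_02 and the highest 2 to yellow eels of FG1835. The log2 difference was -1.35 ± 0.66 (edgeR adjusted p = 1), and ranged from -1.71 to -0.86 when each library was left out in turn. Within FG1835 the silver eels (86.1 to 122) lay below the yellow eels, with a log2 difference of -1.64. Within FG1907 the stages overlapped, with -0.33 (interaction of stage and set, edgeR adjusted p = 0.95). For kcnk1 (g18027), another weakly rectifying channel, silver values of 8.67 to 49.0 (median 22.7) enclosed the yellow values of 11 to 37.3.

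Of the calcium- or sodium-activated channels, kcnn2 (g1868) encodes a small-conductance calcium-activated channel. It had 61.5 to 237 in silver eels with a median of 101, and 209.8, 230.1, 116, 109 and 98.3 in yellow eels. The stages overlapped, with a log2 difference of -0.30 ± 0.41 (edgeR adjusted p = 1). The transcripts of kcnn3, the small-conductance channel of mammalian endothelium, were spread over 10 predicted genes, all with a read and 2 of them tested. The higher of these, g15924, had 5.87 to 100.1 in silver eels with a median of 15.0, and 9.76, 5.90, 10, 35.1 and 25.0 in yellow eels. The value of 100.1 belonged to FG1907_02, and without this library the log2 difference of 0.68 ± 0.75 became -0.45. The second, g21582, had 0 to 27.1 in silver eels with a median of 10.5, and 0, 7.59, 0.909, 64.5 and 61.2 in yellow eels. Reads of 1 gene may have been split among such predicted genes, which makes the levels of single kcnn3 transcripts uncertain.

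Of the large-conductance calcium-activated channel, an accessory subunit passed the filter and the pore subunit did not. The pore subunit kcma1 had 9 transcripts, of which 5 had a read and none was tested, and the highest mean among them was 8.97 (g21400). The accessory subunit kcmb2 (g5274), which in mammals makes this channel inactivate, had 353 to 960.5 in silver eels with a median of 454. In yellow eels kcmb2 had 503, 614, 370.0, 691 and 429. The silver values enclosed the yellow ones, with the highest in FG1907_01, and the log2 difference was 0.02 ± 0.27 (edgeR adjusted p = 1).

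The voltage-gated pore subunits were the largest group, with 122 transcripts, of which 90 had a read, 19 were tested and 3 had a mean above 50. For kcnc2 (g11479), a fast delayed rectifier, silver eels had 29.5 to 251 with a median of 104, and yellow eels had 65.9, 77.5, 109, 217 and 44.5. Its log2 difference was 0.18 ± 0.53 (edgeR adjusted p = 1).

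Of the voltage-gated subunits with lower counts, kcnh5 (g32026), of the ether-a-go-go family, had the smallest unadjusted p of all 35 transcripts. Its silver values were 2.35 to 20.9 with a median of 13.9, and its yellow values were 1.63, 5.90, 4.55, 7.92 and 4.64. All yellow eels lay below 5 of the 6 silver eels, while the silver eel library FG1907_03 had 2.35. The log2 difference was 1.48 ± 0.53 (edgeR adjusted p = 1), with 1.69 within FG1835 and 1.23 within FG1907. In each of these fits kcnh5 passed the filter on low counts only through silver eels, where it was high. Its small p and these differences are therefore a description and no support. Of the same family, kcnh8 (g1743) and kcnh1 (g15839) had log2 differences of 0.63 ± 0.33 and 0.76 ± 0.46, and neither passed the test or reached an unadjusted p of 0.05. The silent subunit kcng3 (g7233), which forms channels only together with other subunits, had 0 to 12.3 in silver eels with a median of 3.04. In yellow eels kcng3 had 8.95, 11.8, 4.55, 11.3 and 73.3. The log2 difference of -2.08 ± 0.94 (edgeR adjusted p = 1), the second lower one under an unadjusted p of 0.05, rested on low counts in most libraries and on 1 high yellow library, FG1907_06. The Shaker-type subunit kcna1 (g11617) had 14.1 to 41.2 in silver eels with a median of 16.9, and 83.0, 54.8, 60.0, 18.1 and 6.49 in yellow eels. The yellow eels of FG1835 lay above all silver eels and 1 yellow eel of FG1907 below all of them, with a log2 difference of -1.0 ± 0.56 (edgeR adjusted p = 1). For another Shaker-type subunit, kcna3 (g18244), the log2 difference of 1.03 ± 1.03 became 2.78 without the yellow eel library FG1835_03.

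The accessory subunit kcne4 (g10800) inhibits several voltage-gated channels of mammals. Its values were 121 to 767 in silver eels with a median of 211, and 103, 134, 174, 546 and 324 in yellow eels. The stages overlapped, and the log2 difference of 0.17 ± 0.54 (edgeR adjusted p = 1) became -0.41 without FG1907_03. The beta subunit kcab2 (g7951), a cytoplasmic partner of Shaker-type channels, had 29.2 to 48.0 in silver eels with a median of 38.3 and 16.7 to 51.8 in yellow eels. The regulator kcnrg (g14240), which hinders the assembly of voltage-gated channels, had a log2 difference of -0.51 ± 0.35 (edgeR adjusted p = 1). The hyperpolarization-activated channel hcn4 (g19692) is the pacemaker channel of the heart in mammals and conducts sodium and potassium. It had 257 to 1850.05 in silver eels with a median of 375, and 334, 274, 245, 766 and 904 in yellow eels. The lowest and the highest silver value belonged to FG1907_02 and FG1907_03, and the log2 difference was 0.38 ± 0.55 (edgeR adjusted p = 1). The other 12 transcripts of this group stayed at or below 6 in each library.

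The potassium channels differed between the library sets in many more cases than between the stages. With the stage in the model, 7 of the 35 tested transcripts were higher in FG1907 at an adjusted p under 0.05 in edgeR, or 20%, against 19.5% of all transcripts tested. Another 6, or 17.1%, were lower, against 19.0%. Both shares were near those of all transcripts. The median log2 difference was 0.19, against 0.025 over all transcripts tested, a median that upper quartile scaling moved to -0.11. The median of the potassium channels was 0.057 under this scaling and -0.097 without the filter on low counts. Leaving out single libraries gave -0.034 to 0.26, with the negative value without the silver eel library FG1907_01. Without overlap between the sets, 1 potassium channel lay above (10.02% of all transcripts tested) and 3 lay below (11.1%). What differed between the sets besides the title is not given in the sources used here, so that eels, sampling and sequencing of the sets cannot be told apart.

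**Figure D2:**
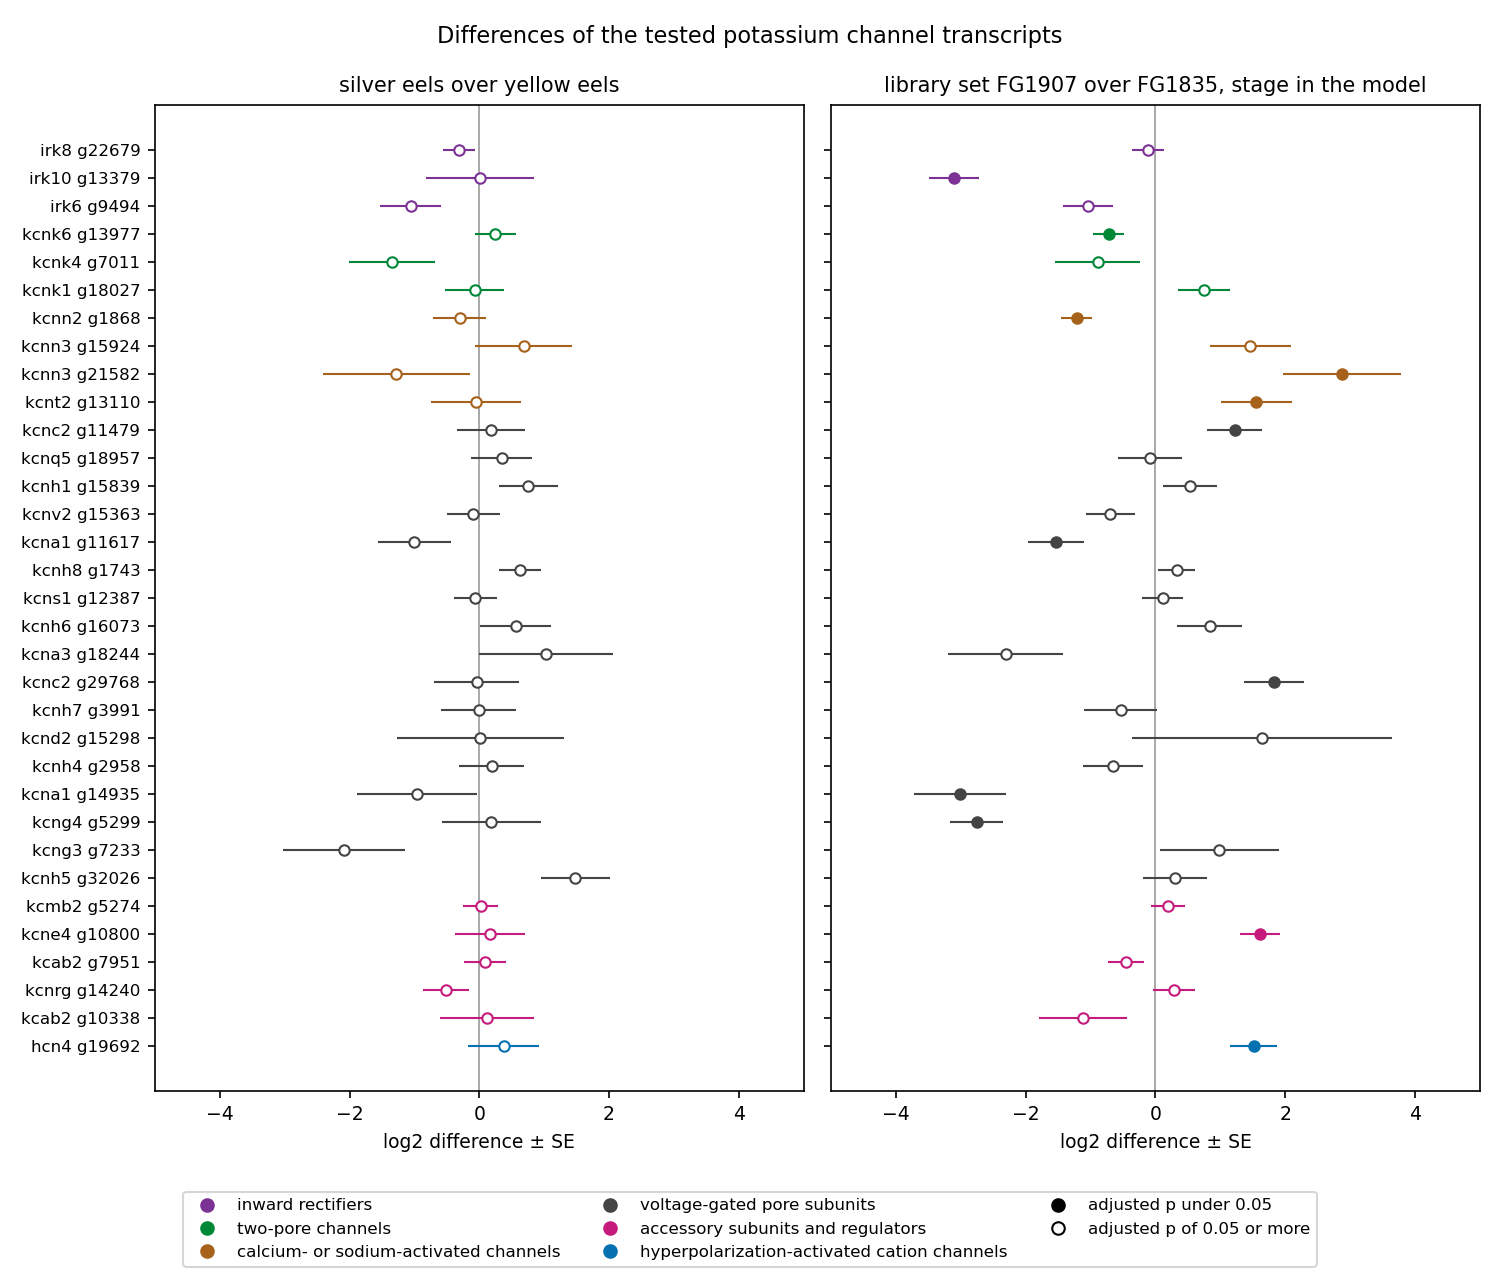
Log2 differences with their SE (edgeR, 11 libraries) of 33 of the 35 tested potassium channel transcripts, in the order of their groups, for silver over yellow eels (left) and for library set FG1907 over FG1835 with the stage in the model (right). No filled point, which marks an adjusted p under 0.05, stands on the left, and 12 stand on the right.

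Lower in FG1907 were irk10, kcnk6, kcnn2, 2 transcripts of kcna1 and kcng4. The inward rectifier irk10 had 30.1, 48.0, 12.9, 27.1 and 7.42 in FG1907, against 181 to 275 with a median of 189.9 in FG1835. The sets did not overlap, in silver or in yellow eels, and the log2 difference was -3.10 ± 0.38 (edgeR adjusted p = 0.00022), a value 8.60-fold higher in FG1835. For kcnn2 (g1868), FG1907 had 62.6, 61.5, 69.3, 109 and 98.3 and FG1835 had 116 to 237 with a median of 198. Again no library of FG1907 reached FG1835, with a log2 difference of -1.21 ± 0.24 (edgeR adjusted p = 0.0025). The silent subunit kcng4 (g5299) had 5.79, 4.17, 3.52, 1.13 and 3.71 in FG1907 and 13.9 to 41.2 with a median of 23.7 in FG1835, without overlap (log2 difference -2.76 ± 0.41, edgeR adjusted p = 0.00056). The kcna1 transcripts g11617 and g14935 fell in FG1907 by 1.53 and by 3.01 on the log2 scale (edgeR adjusted p = 0.015 and 0.0060). The transcripts kcng4 g5299 and kcna1 g14935 passed the filter on low counts only through FG1835, where they were high. Their place among the lower transcripts, and that of kcng4 among those without overlap, is therefore a description and no support. The two-pore channel kcnk6 had 146, 259.7, 148, 215 and 140.0 in FG1907, against 170.3 to 388 with a median of 319 in FG1835. Its sets overlapped, the log2 difference was -0.72 ± 0.24 (edgeR adjusted p = 0.033), and the call was kept in 5 of 11 fits that each left out 1 library.

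Of the 7 transcripts higher in FG1907, 6 are described here, those of kcne4, hcn4, kcnn3 and kcnt2 and 2 of kcnc2. The accessory subunit kcne4 had 235, 289, 767, 546 and 324 in FG1907, against 103 to 186 with a median of 129 in FG1835. It was the 1 tested potassium channel with all libraries of FG1907 above those of FG1835, and its log2 difference was 1.61 ± 0.30 (edgeR adjusted p = 0.0019). The channel hcn4 had 812, 257, 1850.05, 766 and 904 in FG1907, and 245 to 412 with a median of 304 in FG1835. In 4 of the 5 FG1907 libraries it was above each library of FG1835, FG1907_02 being the exception, and its log2 difference was 1.52 ± 0.36 (edgeR adjusted p = 0.0066). For kcnc2 the log2 differences were 1.22 ± 0.43 (g11479, edgeR adjusted p = 0.039) and 1.83 ± 0.46 (g29768, edgeR adjusted p = 0.0090). The kcnn3 transcript g21582 and the sodium-activated channel kcnt2 (g13110) rose by 2.87 ± 0.91 and by 1.56 ± 0.55 (edgeR adjusted p = 0.026 and 0.040). The kcnn3 transcript passed the filter on low counts through FG1907 libraries and, of FG1835, FG1835_04 alone. Its place among the higher transcripts is therefore a description and no support. The calls of irk10, kcnn2, kcng4, kcna1 g11617, kcne4, hcn4 and kcnc2 g29768 held in all 11 fits that left out 1 library. The call of kcna1 g14935 held in the 9 such fits that tested it. For kcng4 and kcna1 g14935 this is no support, as they passed the filter on low counts through FG1835 alone. That of kcnt2 held in 5 of 11 and that of kcnc2 g11479 in 4 of 11 fits, and that of kcnn3 g21582 in 4 of the 8 that tested it.

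Markers of cell types were compared between the sets in the same fit. Of 27 tested mural and smooth muscle markers 13 were lower (48.1%) and 1 was higher (3.70%) in FG1907, and of 20 tested endothelial markers 8 were lower (40%) and 2 were higher (10%), against 19.0% lower and 19.5% higher among all transcripts tested. The mural markers summed to 49734 to 120960 in FG1907 with a median of 64000.1, against 86684 to 112019 with a median of 107217 in FG1835, and without rgs5 g2442 to 49683 to 117106 in FG1907, against 86370 to 111669 in FG1835. The neuron and glia markers summed to 506 to 1716 with a median of 1394 in FG1907 and to 484 to 935 with a median of 532 in FG1835. The striated muscle markers summed to 1405 to 2454 with a median of 1642 in FG1907, above the 1151 to 1330 with a median of 1231 in FG1835 without overlap, and of 6 tested 2 were higher and 1 was lower. The sums of blood and epithelium markers overlapped between the sets. The part of these markers in the differences of the potassium channels was not tested.

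Whether the stage difference depended on the set was tested by the interaction of both. No potassium channel and no other transcript passed at an adjusted p under 0.05 in edgeR (0 of 23981, 0%), while DESeq2 called 22 transcripts, kcnd2 among them, and limma 0. At an unadjusted p under 0.05 there were 4 of the 35 (11.4%), against 4.94% of all transcripts tested, among them kcnd2, irk8 and kcna1 g11617. In each of these 3 the silver eels were lower than the yellow eels in FG1835 and higher in FG1907 by the fitted difference. As kcnd2 passed the filter on low counts only through the libraries where it was high, its place in this share is no support. Fitted within FG1835 alone, 7 of 38 tested potassium channels were lower in silver eels at an unadjusted p under 0.05, against 3.91% of all transcripts tested there, and 1 was higher, against 3.39%. Among the 7 was kcnd2, which passed the filter there only through the yellow eels, so this share is a description and no support. Within FG1907 alone 1 of 35 was lower and 1 was higher, against 1.26% and 1.53%. The higher one was kcnh5 in FG1835 and kcnd2 in FG1907. Each passed the filter there only through silver eels, so these counts of higher transcripts are a description and no support. No potassium channel passed after adjustment in either set.

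The transcript kcnd2 (g15298), chosen for description after its values had been seen, encodes a rapidly inactivating A-type channel. Its values in FG1907 were 62.6, 29.2 and 20 in silver eels, against 0 and 0.927 in the yellow ones. In FG1835 it had 0 in all 3 silver eels, against 48.0, 30.3 and 10 in yellow eels. It was thus read in the silver but hardly in the yellow eels of FG1907, and in the yellow but not in the silver eels of FG1835. The level over the counts was at least 31.6-fold lower in silver than in yellow eels of FG1835, with the silver group set to a floor of 3 counts. In FG1907 it was 72.7-fold higher in silver eels (95% counting interval 12.7 to 2900, exact binomial, from 99 and 1 counts). The counts were pooled over eels, so this interval covers counting error only and not the spread between eels. The interaction had an adjusted p of 0.215 in edgeR, while DESeq2 gave an adjusted p of 2.3e-06 and limma 0.0944. A fully crossed order of the libraries was found in 1 of the 35 potassium channels (2.86%), kcnd2 itself, and in 0.788% of all transcripts tested. As kcnd2 was chosen by its values, the share of 2.86% is a description and no support.

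For irk8, the silver eels of FG1907 had 437, 513 and 826 and its yellow eels had 372 and 592. The silver eels of FG1835 had 499, 499.6 and 427, while its yellow eels had 826, 733 and 762. The stages overlapped in FG1907 but not in FG1835, and the log2 differences were 0.30 and -0.71 (interaction, edgeR adjusted p = 0.92). The plotted transcripts of its regulatory partner abcc9 were also lower in silver eels in FG1835 and higher in FG1907. The abcc9 transcript g26749 had 375, 408 and 681 in silver eels of FG1907, against 335 in both yellow eels, and 245, 394 and 251 in silver eels of FG1835, against 506, 487 and 476 in yellow eels. Of the 4 sulfonylurea receptor transcripts tested, g19365, g26749 and g37377 also had an interaction under an unadjusted p of 0.05 in edgeR, each with an adjusted p of 0.92. Of all transcripts tested 4.94% did. The list was chosen with earlier results of these data known, so this is a description and no support for the pattern of irk8. The plot of values within the sets shows these transcripts side by side.

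**Figure D3:**
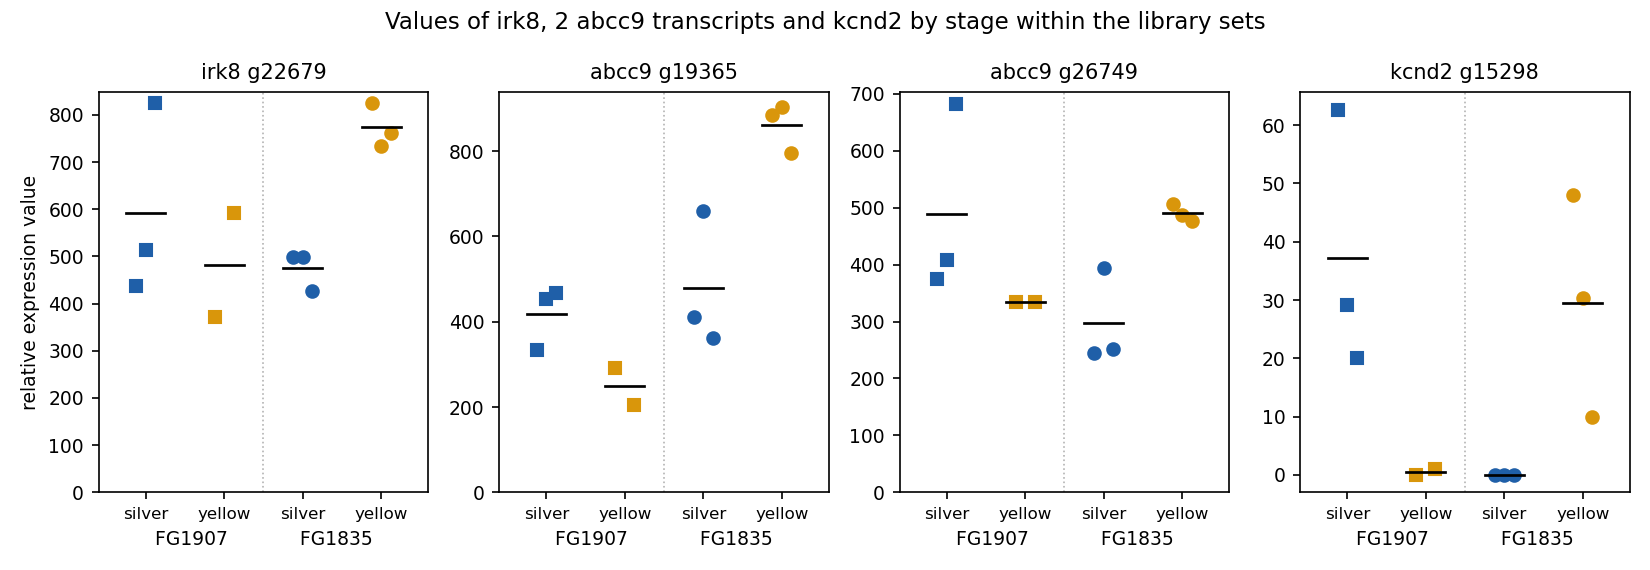
Relative expression values of irk8, 2 abcc9 transcripts and kcnd2 in each library, by stage within FG1907 (squares) and FG1835 (circles), with black bars for the mean of each group of 2 or 3 eels. In FG1835 the silver eels lie below the yellow eels in all 4 panels, and in FG1907 they lie above them for both abcc9 transcripts and kcnd2 and overlap for irk8.

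Some transcripts with low counts were read mainly in 1 library. A highest value of at least 20 was reached by 49 potassium channel transcripts. This highest value was in FG1907_02 for 12 of them (24.5%, against 12.9% of all 24983 transcripts with such a value). It was in FG1907_03 for 9 (18.4%, against 17.4%). For 12 of the 49 the highest library exceeded the next by more than 3 times, and in 7 of these 12 it was FG1907_02. That was 14.3% of the 49, against 1.35% of the 24983, and over all transcripts too FG1907_02 had the most such cases. Both limits were set after the values had been seen. Among these 7 were kcnk3 g23859, g19783 and g33821, kcnc1 g33043, kcna4 g4565 and kcnq3 g521, none of which passed the filter on low counts. These named transcripts reached the limit of 20 through FG1907_02 alone, so their number is a description and no support.

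The acid-sensitive two-pore channel kcnk3 carries a background current of pulmonary artery smooth muscle in mammals. In FG1907_02 its transcript g23859 had 197 (189 counts), while the other 10 libraries lay between 0 and 9.76. The transcript g19783 had 102 there and at most 5.06 elsewhere, g33821 had 53.2 and at most 5.56, and the fourth kcnk3 transcript, g44320, had 11.5 and at most 0.927. All 4 were thus highest in the same silver eel. The same library had the lowest value of kcnk4 (5.22, against 47.0 to 524 elsewhere) and the lowest value of irk6. It also had 48165 for rgs5 g2442, a pericyte marker that reached at most 869 in the other 10 libraries, and 3938 for the smooth muscle marker cnn1 (g14833), with at most 886 elsewhere. These 2 markers were picked after their values had been seen. FG1907_02 was the highest library for 12 of the 41 mural transcripts, counted without a limit on the value. Over all transcripts with a value of at least 20 the share was 12.9%, so the sets compared are unlike. Counted in the same way, FG1907_02 was also highest for 11 of 27 sodium pump, 6 of 32 epithelium and 0 of 23 endothelial transcripts, so this was not particular to mural markers. Its mural sum without rgs5 g2442 lay below each library of FG1835. The other abundant rgs5 transcript, g3655, had its lowest value there, 2137 against 4062 to 19128 elsewhere. The part of these markers in the values of kcnk3 was not tested.

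**Figure D4:**
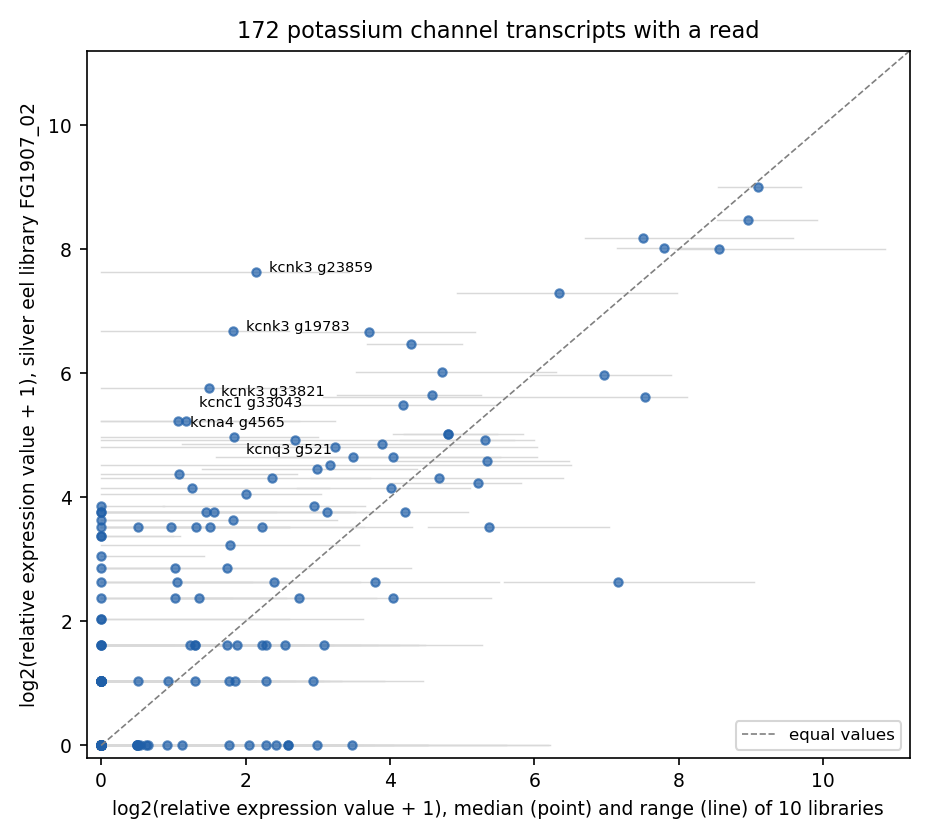
Relative expression values of 172 of the 176 potassium channel transcripts with a read, as log2 of the value + 1, in silver eel library FG1907_02 (vertical axis) against the median (points) and the range (gray lines) of the other 10 libraries (horizontal axis), with equal values on the dashed line. The 6 labelled transcripts, 3 of them kcnk3, had more than 3 times the value of the next library, with kcnk3 g23859 at 197 against at most 9.76.

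The silver eel library FG1907_03 was the highest library for hcn4 (1850.05), kcne4 (767), kcnc2 g11479 (251) and kcnc2 g29768 (64.6). Without this library the stage difference turned negative for hcn4 (-0.27) and kcnc2 g11479 (-0.19) as well as for kcne4. That of kcnc2 g29768 went from -0.04 to -0.70.

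Among genes that work beside potassium channels, none passed the test between the stages. The sodium pump, which builds the potassium gradient, had 15 of 27 transcripts tested, with 9 positive and 6 negative log2 differences and a median of 0.14. Its main catalytic subunit at1a1 (g10968) had 2330.0 to 6760.01 in silver eels with a median of 3130 and 2249, 2024, 1874, 4617 and 5000.27 in yellow eels. Between the sets 5 pump transcripts were higher in FG1907 (33.3%, against 19.5% of all transcripts tested) and 1 was lower (6.67%, against 19.0%), and at1a1 g10968 rose by 1.13 ± 0.17 (edgeR adjusted p = 0.00051). The cation chloride cotransporters, which carry potassium together with chloride, had 17 of 34 transcripts tested, 8 positive and 9 negative, with a median of -0.054, and 1 was higher (5.88%) and 4 were lower (23.5%) in FG1907. Voltage-gated calcium channels respond to the potential set by potassium channels. Of 95 transcripts described as calcium channel, whether voltage-gated or not, 27 were tested, with 8 positive and 19 negative log2 differences and a median of -0.12. Of these, 2 were higher (7.41%) and 8 were lower (29.6%) in FG1907, among them the smooth muscle calcium channel cac1c (g5620), which fell by 2.53 on the log2 scale (edgeR adjusted p = 0.0010).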

How the data were processed

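RNA of the rete mirabile of 6 silver and 5 yellow eels was sequenced, 1 library per eel, on NovaSeq or HiSeq instruments. Which library ran on which is not given in the sources used here. Reads were aligned by the authors with TopHat 2.0.13 (draft genome of the eel), filtered (SAMtools 1.2) and counted per predicted gene (HTSeq 0.6.1p1). Raw counts as deposited, 9360429 to 12438185 per library, were used. The table's columns of the authors' own DESeq comparison (base means, fold changes, p-values) were not used, and no proteome values were analysed here. The column FG1935_03 was read as the library FG1835_03. The protocol names gas gland tissue, while the tissue label names the rete.

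Counts were tested with edgeR 4.0.16 in R 4.3.3 (TMM scaling, filterByExpr by stage, quasi-likelihood test, Benjamini-Hochberg adjustment over all 23981 transcripts, threshold 0.05) on the stage, and with the library set and its interaction added. Each standard error is the log2 difference divided by the root of its F statistic. The fits were tested on simulated data. DESeq2 1.42.0, limma 3.58.1, other scalings and filters, each set alone and each library left out were alternatives. The members and lists were chosen with earlier results of these data known. Named transcripts were the 3 highest of each group and the 5 with the smallest p in each direction between stages and between sets, of which 27 are described. Values of a few transcripts are not reported here, though all 241 enter each count. Related lists and cell type markers were chosen by description or name. Counting intervals cover counting error only. Sequences and transcript lengths were not analysed here.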

Additional observations from a re-analysis of the deposited data

Results flagged for a closer look

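Of 54 groups of eels looked at for the named transcripts, 10 held a library that stood apart from the others of its stage by Dixon's test at the 95% level. For normally distributed values chance does this in about 1 of 20 groups. The relative expression values were used without log and come from both library sets, so the 10 cannot be set against this rate. Among silver eels FG1907_03 stood apart with 767 for kcne4 (g10800, next 289), 1850.05 for hcn4 (g19692, next 812), 826 for irk8 (g22679, next 513) and 64.6 for kcnc2 (g29768, next 26.6). The silver eel library FG1907_02 stood apart with 100.1 for kcnn3 (g15924, next 18.9) and 87.6 for kcnh6 (g16073, next 31.0). Among yellow eels FG1835_03 stood apart with 61.8 for kcna3 (g18244, next 10.2) and with 4.55 for hcn2 (g22128, the other yellow libraries at 0). With the others at 0 the test flags any value above 0, so the case of hcn2 was fixed in advance. Further yellow libraries were FG1907_04 with 53.2 for kcnc2 (g29768, next 18.7) and FG1907_06 with 73.3 for kcng3 (g7233, next 11.8). All silver eels lay below the yellow eels in FG1835 and above them in FG1907 for kcnd2 (g15298), whose interaction had an adjusted p of 0.215 in edgeR.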

How the results depend on the processing

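No potassium channel was called between the stages in any of the alternatives run. At an unadjusted p under 0.05 there were 3 of 35 potassium channels, against 515 of all 23981 transcripts tested. Within FG1835 alone there were 8 of 38 (1800 of 24657 in all), and without the filter 15 of 176 (1333 of 39516). The 3 and the 8 include kcnh5, and the 8 also kcnd2. These passed the filter only through the stage where they were high, so both counts are a description and no support. With the set as a term and without FG1907_02 there was 1 of 32 (1472 of 23533). Among transcripts above 50 there were 0 of 11 (346 of 15070). Leaving out single libraries gave 0 to 4, against 446 to 664 of all transcripts. The median log2 difference of 0.023 was 0.40 within FG1907 alone and -0.15 with the set as a term and without FG1907_02. Between the sets, 7 higher and 6 lower calls of 35 tested became 3 and 3 among the 11 transcripts above 50. Without the filter 176 were tested, and the lower calls became 11. Leaving out single libraries gave 3 to 8 higher and 4 to 8 lower calls, with 3 higher calls without the silver eel library FG1835_04 and 4 without FG1835_05 or the yellow eel library FG1907_04. In the main fit 19.5% of all transcripts tested were higher and 19.0% lower. The shares over all transcripts in the other fits are not given here, so their set counts are a description and no result about potassium channels. In the interaction DESeq2 called 1 potassium channel, kcnd2, among 22 transcripts in all. The fit without the filter called kcnd2 among 2 transcripts. A limit of 10 in place of 50 on the mean left 37 transcripts. Named stage differences of which the sign turned by at least their SE were, within FG1835 alone, kcnc2 g11479 (-0.63), and within FG1907 alone, kcna1 g11617 (0.42) and irk8 (0.30). With the set as a term and without FG1907_02, kcnn3 g15924 was -0.27 and kcnh6 -0.12. Leaving out single libraries gave -0.41 to 0.63 for kcne4, -0.27 to 0.70 for hcn4, -0.45 to 1.10 for kcnn3 g15924 and -0.13 to 0.73 for kcnh6, and -0.076 to 0.32 for the set difference of kcmb2. The cause of these changes was not tested. No paired analysis was possible because the labels number libraries, not pairs of eels. The filter on low counts left 206 of the 241 transcripts untested at this depth.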
